A study of Mus musculus with 24 samples.

Results

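The 44 genes described here encode the enzymes and transporters of glycolysis, the kinases that set its flux, the subunits of the hypoxia-inducible factor (HIF) with the proteins that degrade them, and genes known to respond to HIF. They were chosen by symbol, and 43 of the 44 were found among the 12010 genes measured. The remaining member, Aldoc, was not analysed here. Messenger RNA was measured in B16F10-luc2 cells, a mouse melanoma line that carries a luciferase reporter, in 8 cell lines with 3 libraries each. The lines were the parental cells (genotype WT) and 7 knockout (KO) lines derived from them, directly or by way of the MITF KO, by genome editing, namely a Mitf-KO (here MITF KO), a Tfe3-KO (TFE3 KO), a Tfeb-KO (TFEB KO), the double KOs of Tfeb and Tfe3 (TFEB/TFE3 DKO), of Mitf and Tfe3 (MITF/TFE3 DKO) and of Mitf and Tfeb (MITF/TFEB DKO), and a triple KO of all of them (TKO). MITF, TFEB and TFE3 are related transcription factors that bind the same kind of E-box, so that a double KO keeps 1 of them and the TKO keeps none. A low level of a truncated MITF may remain in the MITF KO. The KO lines were isolated as clones, and the 3 libraries of a line are not said to come from separate clones, so p-values measure the spread between libraries of 1 line and an effect of a gene cannot be told apart from a property of the clone. All lines grew in the same serum-containing medium and were harvested before confluence.

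Glycolysis turns glucose into pyruvate. Hexokinase traps glucose in the cell, phosphofructokinase commits it, and the pay-off steps return ATP and NADH, after which lactate dehydrogenase turns pyruvate into lactate and a monocarboxylate transporter exports it with a proton. When oxygen is short, the α subunit of HIF escapes the prolyl hydroxylases (Egln genes) and the VHL ligase that otherwise mark it for degradation, pairs with ARNT and raises glucose uptake, most glycolytic enzymes, the pyruvate dehydrogenase kinases that keep pyruvate out of the mitochondrion, and genes for mitophagy, pH control and vessel growth. Many tumours, melanoma included, run glycolysis with oxygen present.

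The libraries held 18300902 to 26667877 reads on genes. Levels are read counts scaled to library size and by TMM (CPM), and only the 3′ end of each transcript was sequenced. Tfe3 RNA lay at 35.38 to 38.43 CPM in the parental cells and at 8.014 to 21.75 CPM in the 4 lines in which it was knocked out. Tfeb RNA fell from between 7.867 and 10.34 CPM in the parental cells to between 2.056 and 5.269 CPM in the 4 lines in which it was knocked out. Mitf RNA, at 763 to 797.4 CPM in the parental cells, was present in all 4 lines in which it was knocked out. It lay above the parental range in the MITF KO (1358.0 to 1470.5 CPM) and the MITF/TFE3 DKO (1100.7 to 1268.1 CPM) and below it in the MITF/TFEB DKO (543.8 to 603.1 CPM) and the TKO (325.7 to 349.7 CPM), so that the RNA level does not check these labels. All 7 melanocyte genes looked for (Pmel, Mlana, Tyr, Tyrp1, Dct, Sox10 and Mitf) were present, with a summed level of 26133.6 to 26953.1 CPM in the parental cells, up to 40320.7 CPM in the MITF KO and 15825.5 to 16858.3 CPM in the TKO. Of the 14 markers of other cells, 4 were in the table, namely Col1a1 and Col1a2 (9.731 to 45.31 CPM together), Cd68 (at most 1.742 CPM) and Pecam1. Pecam1, an endothelial adhesion gene, lay at 7.731 to 8.586 CPM in the parental cells, at 25.48 to 31.57 CPM in the TFEB/TFE3 DKO and at most at 0.215 CPM in the TKO, while Cdh5, the other endothelial marker, was not in the table. The part of these genes in the results was not tested.

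Several glycolytic genes have near-identical copies in the mouse genome, and reads from the last 300 bases of a transcript can then be split or lost. All 50-base stretches of the 3′ ends of Gapdh and Pgk1 occur elsewhere in the genome, as do 99.2% of those of Pgam1 and 90% of those of Eno1, so that the levels of these 4 genes are uncertain. The share was 41.8% for Bnip3, 30.3% for Ldhb, 26.7% for Ldha and 21.5% for Pkm, and under 15% for every other member. Counting is not stated to have used the strand, and genes on the opposite strand overlap the 3′ ends of Pfkl, Pfkp, Tpi1, Gapdh, Pkm, Ldha, Slc16a3, Car12, Ankrd37, Ndrg1, Hif1a and Vhl, while a gene on the same strand overlaps Aldoa and Pfkfb2.

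HIF binds the core ACGTG or GCGTG, and MITF, TFEB and TFE3 bind the E-boxes CACGTG and CATGTG. These letters were searched on both strands in the 250 bases before the start of the canonical transcript (GENCODE annotation, build GRCm39, the authors' mm39). ACGTG also lies inside CACGTG, so that the 2 searches overlap. ACGTG was found in 17 of 43 member promoters (39.5%) and in 21.7% of the 11705 promoters of measured genes. GCGTG was found in 20 members (46.5%, against 42.3% of all promoters). The E-box CACGTG occurred in 7 members (16.3%, against 7.96%), namely Pfkp, Ldha, Slc16a1, Pdk2, Bnip3, Egln1 and Hif1a, and CATGTG in 4 (9.3%, against 7.48%), namely Pdk3, Bnip3l, Egln3 and Ankrd37. A match describes the letters only and is not evidence of binding. The promoters of the 4 members that were lower in every line without MITF and higher in the TFEB/TFE3 DKO (Mgarp, Hk2, Slc16a3 and Hif1a) and of Pfkp and Pdk2, which were higher in every line without MITF, are printed 5′ to 3′ on the gene's own strand, with every match in capitals as it reads on that strand (CACGT for ACGTG and CACGC for GCGTG on the other strand).
Mgarp (chr3:51303970-51304219, minus strand): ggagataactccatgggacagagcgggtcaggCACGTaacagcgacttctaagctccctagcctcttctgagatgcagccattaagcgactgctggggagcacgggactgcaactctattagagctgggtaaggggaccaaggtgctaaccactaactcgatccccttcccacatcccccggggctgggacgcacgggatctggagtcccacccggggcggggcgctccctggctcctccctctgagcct
Hk2 (chr6:82751453-82751702, minus strand): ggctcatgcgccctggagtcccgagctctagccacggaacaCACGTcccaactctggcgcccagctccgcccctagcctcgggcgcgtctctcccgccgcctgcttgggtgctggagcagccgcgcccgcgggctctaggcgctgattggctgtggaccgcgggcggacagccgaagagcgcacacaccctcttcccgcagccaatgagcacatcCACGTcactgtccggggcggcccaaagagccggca
Slc16a3 (chr11:120839291-120839540, plus strand): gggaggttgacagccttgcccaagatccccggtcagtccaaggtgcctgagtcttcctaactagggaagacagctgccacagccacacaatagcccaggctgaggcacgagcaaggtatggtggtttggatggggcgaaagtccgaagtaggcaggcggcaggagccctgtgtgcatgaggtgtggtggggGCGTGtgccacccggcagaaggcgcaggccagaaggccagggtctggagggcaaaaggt
Hif1a (chr12:73954320-73954569, plus strand): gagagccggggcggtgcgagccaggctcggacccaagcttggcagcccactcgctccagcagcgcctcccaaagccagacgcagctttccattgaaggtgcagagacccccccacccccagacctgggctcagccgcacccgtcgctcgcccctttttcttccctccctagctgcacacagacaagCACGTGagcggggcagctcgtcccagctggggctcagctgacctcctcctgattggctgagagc
Pfkp (chr13:6698971-6699220, minus strand): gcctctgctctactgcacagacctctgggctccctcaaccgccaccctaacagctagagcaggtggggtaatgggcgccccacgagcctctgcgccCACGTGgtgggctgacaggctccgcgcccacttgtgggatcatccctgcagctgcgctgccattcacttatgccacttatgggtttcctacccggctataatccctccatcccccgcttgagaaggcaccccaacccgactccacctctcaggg
Pdk2 (chr11:94932241-94932490, minus strand): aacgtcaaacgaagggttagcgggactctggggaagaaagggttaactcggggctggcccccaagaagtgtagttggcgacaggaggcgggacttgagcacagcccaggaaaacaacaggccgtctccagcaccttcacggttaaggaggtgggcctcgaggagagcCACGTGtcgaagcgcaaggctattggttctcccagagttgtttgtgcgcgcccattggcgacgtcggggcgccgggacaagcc
Among the first 4, the Hif1a promoter holds CACGTG 64 to 59 bases before the start, the Hk2 promoter holds ACGTG at 209 to 205 and at 35 to 31 bases, the Mgarp promoter at 218 to 214 bases, and the Slc16a3 promoter holds only GCGTG, at 59 to 55 bases. Pfkp and Pdk2 each hold 1 CACGTG, at 154 to 149 and at 83 to 78 bases.

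In the lines that keep MITF and lost TFEB, the members that passed the test were all upregulated, while most members did not pass it. In the TFEB KO, 10 of 43 members were upregulated against the parental cells (23.3%, where 2.25% of all genes were) and 0 were downregulated (2.59% of all genes), at an adjusted p under 0.05 in limma over all genes. The 10 were Hk2, Pfkl, Pkm, Ldha, Slc16a3, Pdk3, Bnip3, Ndrg1, Hif1a and Mgarp. In the TFEB/TFE3 DKO, 18 members were upregulated (41.9%, against 4.72% of all genes) and 0 were downregulated (4.09% of all genes). The 18 held 7 of 12 HIF-responsive effectors (Bnip3, Bnip3l, Vegfa, Ndrg1, Stc1, Higd1a and Mgarp), 5 of 8 enzymes of the preparatory steps (Hk1, Hk2, Pfkl, Pfkm and Aldoa) and also Pkm, Ldhb, Slc16a3, Pdk1, Egln1 and Hif1a. Beside these counts of 0, an unadjusted p under 0.05 found 1 member lower for the single KO and 0 for the double KO, and edgeR on the recovered reads found 0 in both. The changes were small for the most part. The median log2 fold change of the members was 0.30 for the single KO and 0.31 for the double KO, against -0.0043 and -0.016 over all genes, and 34 and 37 of the 43 members lay above 0. The study's threshold of a 2-fold change at an unadjusted p under 0.05, which 0.783% and 0.958% of all genes passed, was met by 1 member of the single KO (Mgarp) and 3 of the double KO (Mgarp, Bnip3 and Stc1). For the single KO this count was 4 with edgeR, 3 without TFEB KO replicate 2 and 2 without parental replicate 2 or TFEB KO replicate 3. All comparisons with the parental cells share the same 3 parental libraries. The count for the TFEB KO was 5 without parental replicate 1, parental replicate 3 or TFEB KO replicate 1, 6 without TFEB KO replicate 3 and 2 with only the 6 libraries compared in the fit (Slc16a3 and Mgarp). For the TFEB/TFE3 DKO it was 10 without parental replicate 1, 11 without parental replicate 3, 8 without its own replicate 1 and 11 with only the libraries compared, where the calls of Pfkm, Aldoa, Pkm, Bnip3l, Ndrg1, Hif1a and Higd1a ended. The shares of all genes in such other fits were not determined, here or for the lines below.

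In the TFE3 KO, the shares of members called lay near those of all genes. Upregulated were 2 of 43 members (4.65%, where 4.5% of all genes were), namely Ldhb and Egln1, and 4 were downregulated (9.3%, against 7.78% of all genes), namely Slc16a3, Eno2, Pfkfb4 and Bnip3l. The median log2 fold change of the members was 0.0072, against -0.0015 over all genes. The 2 members past the study's threshold (1.71% of all genes) were Pgk1 and Eno1, both with shared 3′ ends and neither with an adjusted p under 0.05. The count of upregulated members was 1 without parental replicate 1, 5 without TFE3 KO replicate 1 and 0 without TFE3 KO replicate 2 or with only the libraries compared, and that of downregulated members was 2 without parental replicate 2 or TFE3 KO replicates 2 or 3 and 1 (Slc16a3) with only the libraries compared. The count past the study's threshold was 1 without parental replicate 1 and 0 without TFE3 KO replicate 2.

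**Figure D1:**
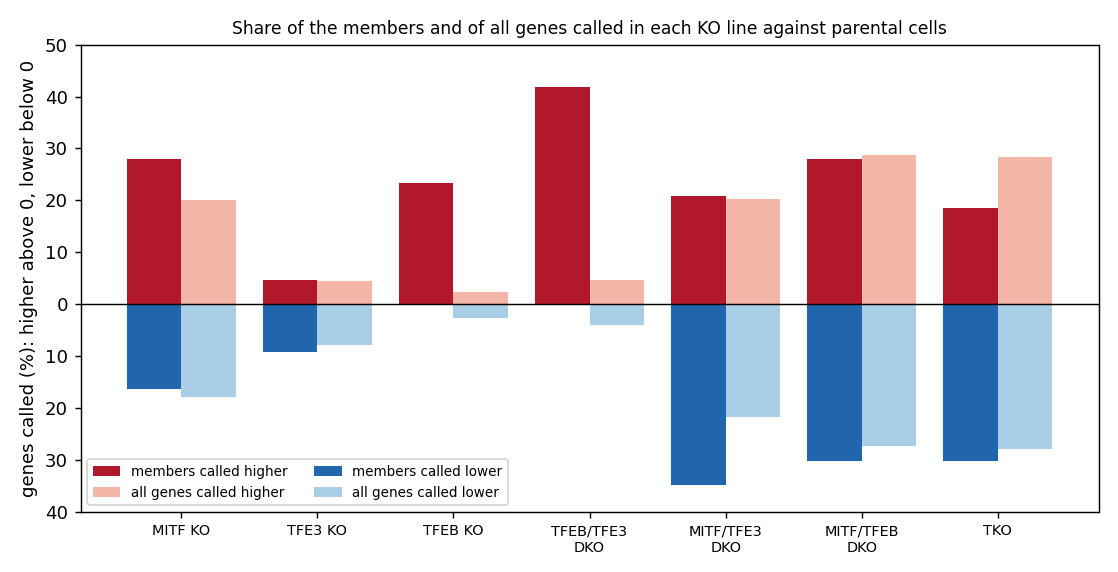
Share of the 43 members (dark bars) and of all 12010 genes (pale bars) called higher (above 0) or lower (below 0) than the parental cells in each KO line, in percent, at an adjusted p under 0.05. The TFEB KO and TFEB/TFE3 DKO reach 23.3% and 41.9% of members higher with 0 lower, while the lines without MITF have members called in both directions.

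In the lines without MITF members were called in both directions. In the MITF KO, 12 of 43 members were upregulated (27.9%, against 20.1% of all genes) and 7 downregulated (16.3%, against 17.8%), and 6 passed the study's threshold (14%, against 6.28%). In the MITF/TFE3 DKO, 9 were upregulated (20.9%, against 20.2%) and 15 downregulated (34.9%, against 21.7%), and 6 passed the study's threshold (against 5.87%). In the MITF/TFEB DKO, 12 were upregulated (27.9%, against 28.8%) and 13 downregulated (30.2%, against 27.3%), and 6 passed the threshold (against 13.7%). In the TKO, 8 were upregulated (18.6%, against 28.3%) and 13 downregulated (30.2%, against 27.9%), and 8 passed the threshold (18.6%, against 14.7%). The count past the threshold for the MITF/TFEB DKO was 10 with edgeR or a pseudocount of 0.25 and 3 with a pseudocount of 5 or a mean CPM of at least 5, and a pseudocount of 5 gave 3 for the MITF KO and 4 for the TKO. With only the libraries compared, 11 members were downregulated for the MITF KO and 13 upregulated for the TKO. The shares of all genes at these other settings were not determined, so these counts are not to be set against the shares above. The median log2 fold change of the members was 0.065, -0.056, -0.060 and -0.11 in these 4 lines in that order, and quantile normalization moved that of the MITF/TFEB DKO to 0.044, so that no direction of the whole list is given for it. Quantile normalization also ended the calls of Ldha and Stc1 in the MITF KO, of Pdk2, Car9 and Ankrd37 in the MITF/TFE3 DKO and of Aldoa, Pkm and Ankrd37 in the TKO. Across all 7 KO lines, 8 members were called in none, namely Tpi1, Gapdh, Pgk1, Eno1, Slc2a1, Pfkfb2, Epas1 and Vhl. The share of all genes called in none was not determined. Gapdh, Pgk1 and Eno1 have shared 3′ ends and a wide spread between libraries, and Epas1 had few reads, so that a missing call does not show a steady level.

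**Figure D2:**
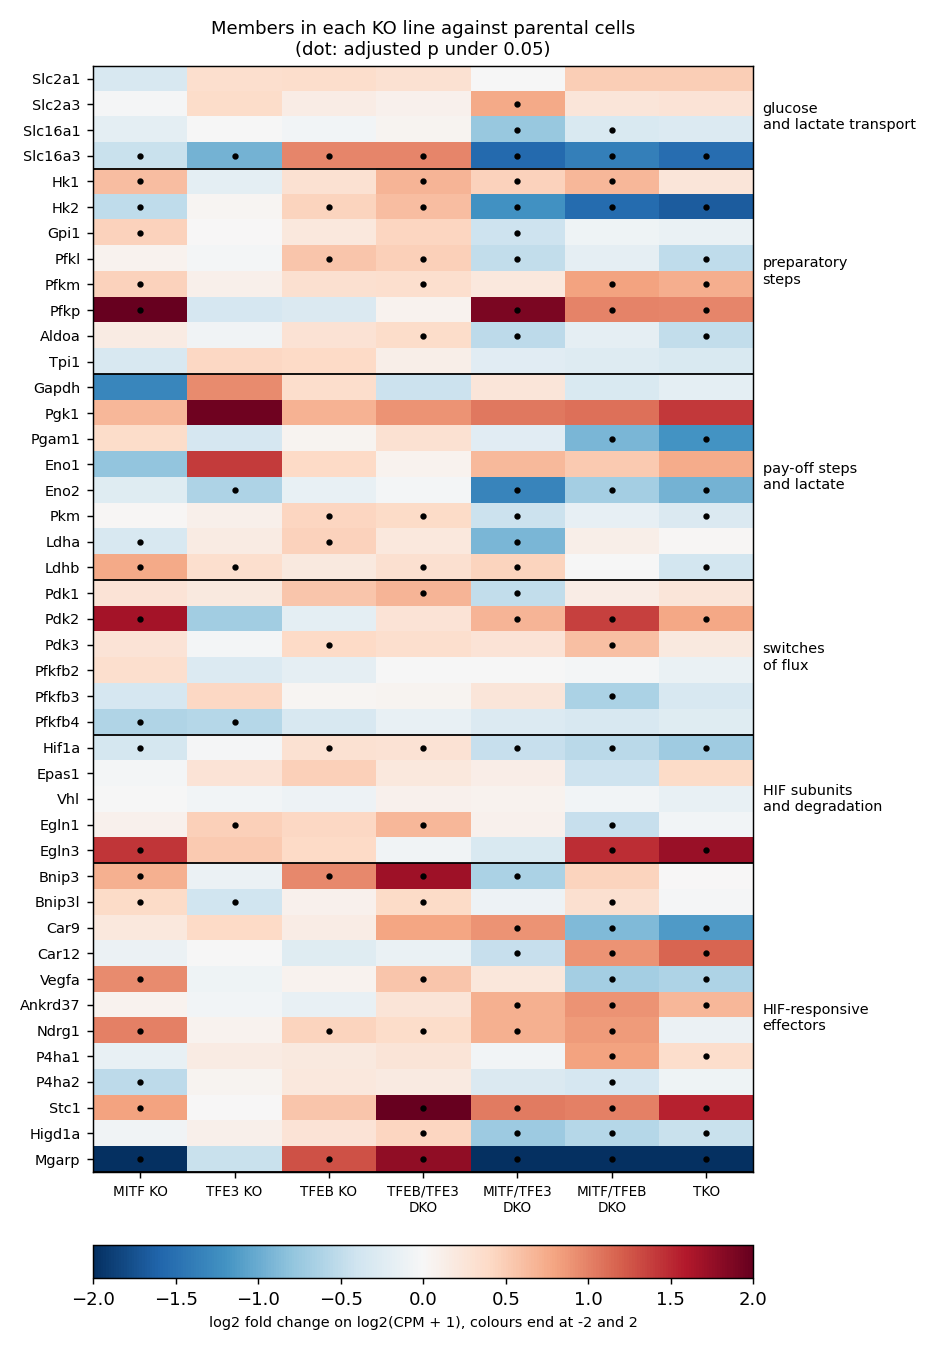
Log2 fold change against the parental cells (colour, red higher, blue lower, ending at -2 and 2) of the 43 members (rows, by role) in the 7 KO lines (columns), with a dot at an adjusted p under 0.05. Mgarp, Hk2, Slc16a3 and Hif1a are red with dots in the TFEB KO and TFEB/TFE3 DKO and blue with dots in the 4 lines without MITF, and Pfkp, Pdk2 and Stc1 are red with dots in those 4 lines.

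Hk2, Slc16a3, Hif1a and Mgarp were upregulated in both TFEB lines that keep MITF and downregulated in all 4 lines without it. The share of all genes with this pattern was not determined, nor that of genes higher in all 4 lines without MITF, as Pfkp, Pdk2 and Stc1 were. Neither pattern is read as particular to the members. The 4 lines without MITF share the Mitf mutation of 1 line, so a pattern in all of them is not 4 separate losses of MITF. Mgarp encodes a mitochondrial membrane protein that aids transport of mitochondria and is known as a HIF target, and it moved furthest of all members. It read 28.39, 32.06 and 34.7 CPM in the parental cells, 84.87, 82.76 and 67.46 CPM in TFEB KO libraries and 116.2, 117.5 and 98.72 CPM in TFEB/TFE3 DKO libraries. It read 1.883, 2.37 and 1.743 CPM in MITF KO libraries, 0.5398, 0.2356 and 0.7771 CPM in MITF/TFE3 DKO libraries, 1.921, 0.9236 and 2.309 CPM in MITF/TFEB DKO libraries and 0.8015, 0.8084 and 0.774 CPM in TKO libraries. No library of these 6 lines overlapped the parental range, and the lines without MITF lay near the floor, with 5 to 17 reads in a library of the MITF/TFE3 DKO. The log2 fold change was 1.28 ± 0.18 (SE) in the TFEB KO (adjusted p = 7.5e-05) and 1.77 ± 0.18 in the TFEB/TFE3 DKO (adjusted p = 1.1e-06). It was -3.45 ± 0.18 in the MITF KO (adjusted p = 4.1e-13) and -4.18 ± 0.18 in the TKO (adjusted p = 5.6e-15), on a scale that understates changes near the floor. In the TFE3 KO, Mgarp read 17.75, 27.74 and 24.64 CPM, which did not pass the test (adjusted p = 0.12).

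Slc16a3 encodes MCT4, the proton-coupled transporter that exports lactate from glycolytic cells. It read 99.79, 100.3 and 95.87 CPM in the parental cells, 255.4, 149.7 and 192.5 CPM in TFEB KO libraries and 224.8, 169.9 and 191.6 CPM in TFEB/TFE3 DKO libraries, so that both lines lay above every parental library (log2 fold change 0.97 ± 0.14, adjusted p = 9.3e-05, and log2 fold change 0.97 ± 0.14, adjusted p = 8.5e-05). It was the 1 member of these 4 that was also downregulated in the TFE3 KO, where it read 51.52, 48.47 and 51.71 CPM (log2 fold change -0.95 ± 0.14, adjusted p = 7.1e-05). It read 60.73, 85.55 and 73.01 CPM in MITF KO libraries, 31.06, 35.85 and 32.09 CPM in MITF/TFE3 DKO libraries, 39.64, 35.39 and 38.26 CPM in MITF/TFEB DKO libraries and 37.67, 31.15 and 32.81 CPM in TKO libraries. All of these lay below the parental range, with log2 fold changes of -0.44 ± 0.14, -1.55 ± 0.14, -1.36 ± 0.14 and -1.52 ± 0.14 (adjusted p = 0.018, 1.2e-08, 2.9e-08 and 4.5e-09). Without MITF KO replicate 1, the call in the MITF KO ended (adjusted p = 0.12).

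Hk2, the inducible hexokinase bound to mitochondria in many tumours, read 259.5, 264.8 and 246.7 CPM in the parental cells. It read 408.8, 272.6 and 386.3 CPM in TFEB KO libraries and 413.9, 372.7 and 401.3 CPM in TFEB/TFE3 DKO libraries (log2 fold change 0.45 ± 0.12, adjusted p = 0.024, and log2 fold change 0.62 ± 0.12, adjusted p = 0.0013). The call in the TFEB KO ended without any of 5 of the 6 libraries compared, parental replicates 1, 2 or 3 and TFEB KO replicates 1 or 3 (adjusted p up to 0.15). Hk2 read 161.7, 178.7 and 204.3 CPM in MITF KO libraries, 96.75, 125.2 and 110 CPM in MITF/TFE3 DKO libraries, 89.24, 86.98 and 87.07 CPM in MITF/TFEB DKO libraries and 83.64, 79.88 and 78.86 CPM in TKO libraries. These lines lay below the parental cells without overlap, with folds of 1.42, 2.32, 2.91 and 3.15 (log2 fold change -0.51 ± 0.12 in the MITF KO and -1.66 ± 0.12 in the TKO, adjusted p = 0.0014 and 2.8e-11). Hk2 did not pass the test at 271.4, 243.1 and 276.5 CPM in TFE3 KO libraries, which overlapped the parental range.

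Hif1a encodes the oxygen-regulated HIF-1α subunit, whose protein level is set mainly by degradation, so that its RNA need not follow its activity. It read 105.4, 110.2 and 113.5 CPM in the parental cells, 133.9, 138.7 and 133.4 CPM in TFEB KO libraries and 139.8, 136.8 and 128.1 CPM in TFEB/TFE3 DKO libraries. It read 83.18, 85.55 and 89.3 CPM in MITF KO libraries, 76.61, 81.5 and 80.68 CPM in MITF/TFE3 DKO libraries, 78.07, 72.67 and 74.89 CPM in MITF/TFEB DKO libraries and 66.7, 67.66 and 66.48 CPM in TKO libraries. The libraries of a line differed little, and the changes, although under 2-fold, separated every one of these lines from the parental cells. The log2 fold change was 0.30 ± 0.06 in the TFEB KO (adjusted p = 0.0045), 0.30 ± 0.06 in the TFEB/TFE3 DKO (adjusted p = 0.0039), -0.35 ± 0.06 in the MITF KO (adjusted p = 1.3e-04) and -0.70 ± 0.06 in the TKO (adjusted p = 2.0e-09). Hif1a did not pass the test at 107.4, 104.2 and 110.6 CPM in TFE3 KO libraries, which overlapped the parental range. With only the libraries compared in the fit, the calls for the single and the double KO ended (adjusted p up to 0.086 and 0.052). The median log2 change of the 100 genes around Hif1a was -0.30 for the MITF KO, near the -0.35 of Hif1a itself. For the MITF/TFEB DKO it was -0.44, against -0.54 for Hif1a, and for the TKO -0.40, against -0.70. For the MITF/TFE3 DKO it was -0.06, against -0.46 for Hif1a. It was 0.11 for the TFEB/TFE3 DKO and 0.13 for the TFEB KO, against 0.30 for Hif1a in each. The part of these neighbouring genes in the result was not tested.

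**Figure D3:**
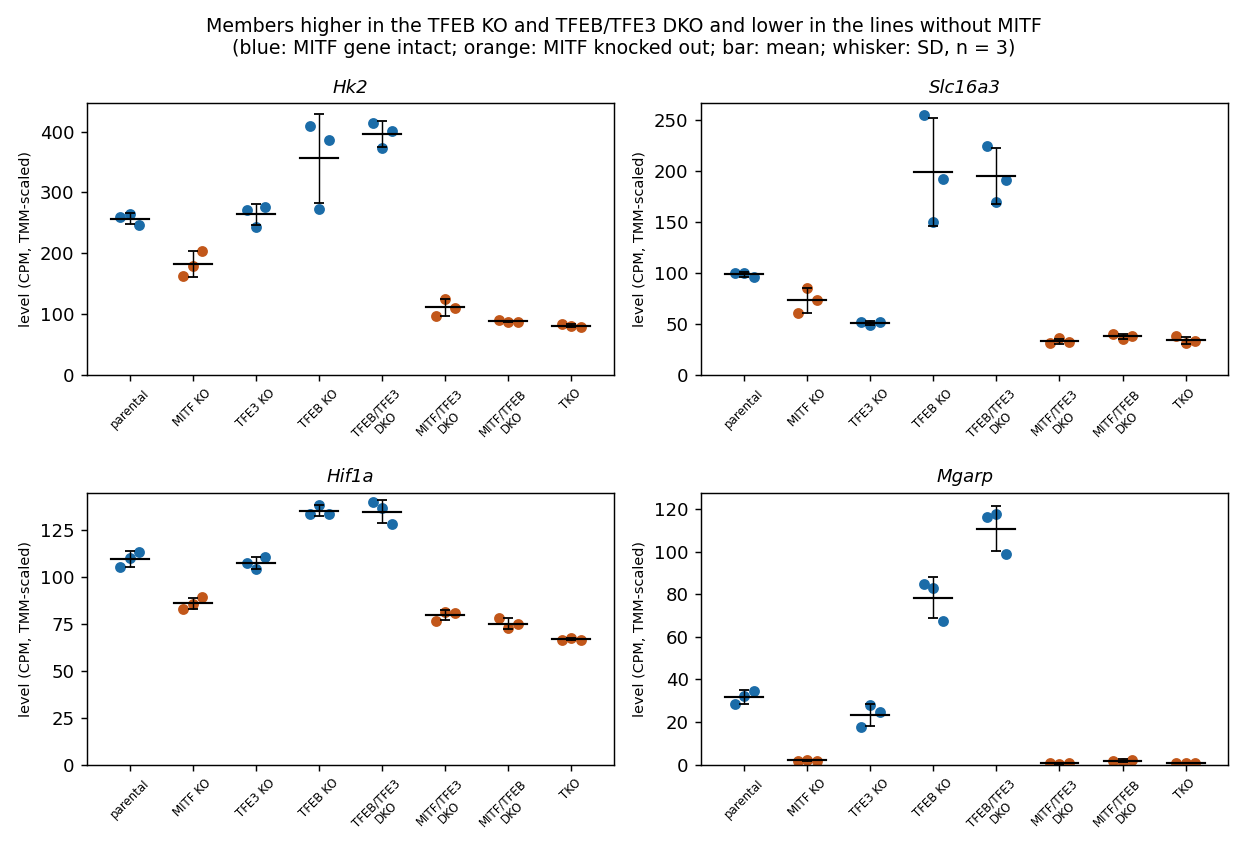
Level in CPM (vertical axis, from 0) of Hk2, Slc16a3, Hif1a and Mgarp in each of the 3 libraries (points) of the 8 lines, with the mean (bar) and SD (whisker). The TFEB KO and TFEB/TFE3 DKO lie above the parental cells in all 4 panels and the lines without MITF (orange) below, with Mgarp at 2.37 CPM or less there.

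The other genes of transport are those of 1 lactate and 2 glucose carriers. Slc16a1 encodes MCT1, which moves lactate in either direction, and read 77.49, 75.67 and 79.24 CPM in the parental cells. It was downregulated in the MITF/TFE3 DKO, at 45.13, 45.09 and 46.71 CPM (log2 fold change -0.75 ± 0.12, adjusted p = 3.2e-05), with no overlap. In the MITF/TFEB DKO it read 76.22, 55.71 and 57.01 CPM and overlapped the parental range (log2 fold change -0.31 ± 0.12, adjusted p = 0.033, ended without any 1 of 5 of the 6 libraries, all but MITF/TFEB DKO replicate 1, with an adjusted p up to 0.16). Slc16a1 did not pass the test at 60.26, 72.89 and 70.83 CPM in MITF KO libraries, 78.35, 64.87 and 91.01 CPM in TFE3 KO libraries, 83.22, 67.27 and 74.63 CPM in TFEB KO libraries, 85.22, 74.5 and 82.42 CPM in TFEB/TFE3 DKO libraries and 64.7, 68.9 and 58.78 CPM in TKO libraries. Slc16a1 lay below every parental library in the MITF KO (adjusted p = 0.22) and the TKO (adjusted p = 0.059), and the rest of these lines overlapped the parental range. Slc2a1, the glucose transporter GLUT1, read 23.56, 22.92 and 27.1 CPM in the parental cells and passed the test in no KO line against them, with 20.48, 14.98 and 24.03 CPM in MITF KO libraries and 30.97, 35.85 and 38.44 CPM in TKO libraries. Slc2a1 read 22.74, 41.72 and 31.55 CPM in TFE3 KO libraries, 28.17, 40.63 and 27.11 CPM in TFEB KO libraries, 25.59, 43.27 and 25.58 CPM in TFEB/TFE3 DKO libraries, 24.62, 22.1 and 26.05 CPM in MITF/TFE3 DKO libraries and 26.31, 40.64 and 39.41 CPM in MITF/TFEB DKO libraries. Slc2a1 lay above every parental library in the TFEB KO (adjusted p = 0.47), and the rest of these lines overlapped the parental range. Slc2a3, the high-affinity transporter GLUT3, was upregulated in the MITF/TFE3 DKO, at 20.18 to 24.41 CPM against 11.64 to 13.92 CPM (log2 fold change 0.75 ± 0.16, adjusted p = 6.0e-04).

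In the preparatory steps, the 3 phosphofructokinase genes differed in direction between lines. Pfkp encodes the platelet-type enzyme, common in tumours, and read 30.68, 32.74 and 26.79 CPM in the parental cells. It was upregulated in every line without MITF, at 132.8, 142.9 and 142.3 CPM in MITF KO libraries, 107, 129.7 and 105.9 CPM in MITF/TFE3 DKO libraries, 62.66, 63.01 and 55.94 CPM in MITF/TFEB DKO libraries and 60.91, 58.77 and 59.47 CPM in TKO libraries. All of these lay above the parental range, by folds of 4.53, 3.7, 1.98 and 1.96 (log2 fold change 2.18 ± 0.11 in the MITF KO and 0.97 ± 0.11 in the TKO, adjusted p = 3.0e-13 and 1.6e-07). In the lines with MITF it did not pass the test, at 24.97, 22.71 and 25.26 CPM in TFEB KO libraries, 27.73, 24.11 and 19.79 CPM in TFE3 KO libraries and 27.74, 36.21 and 31.06 CPM in TFEB/TFE3 DKO libraries. Pfkl, the liver-type enzyme, was upregulated in the TFEB KO (log2 fold change 0.56 ± 0.13, adjusted p = 0.012) and the TFEB/TFE3 DKO (log2 fold change 0.48 ± 0.13, adjusted p = 0.024) and downregulated in the MITF/TFE3 DKO (log2 fold change -0.48 ± 0.13, adjusted p = 0.0052) and the TKO (log2 fold change -0.51 ± 0.13, adjusted p = 0.0022). Pfkm, the muscle-type enzyme, was upregulated in the MITF KO, the TFEB/TFE3 DKO, the MITF/TFEB DKO and the TKO, by log2 changes of 0.34 to 0.81. The calls of Pfkl in both TFEB lines that keep MITF ended without replicates 1 or 3 of either group (adjusted p up to 0.077 and 0.15), and that of Pfkm in the TFEB/TFE3 DKO without any 1 of the 6 libraries but parental replicate 3 (up to 0.18).

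Aldoa, the main aldolase, and Gpi1, glucose-6-phosphate isomerase, were abundant and moved by less than 1.5-fold. Aldoa read 2500.7, 2809.7 and 2583.8 CPM in the parental cells and 3619.0, 2997.2 and 3539.0 CPM in TFEB/TFE3 DKO libraries (log2 fold change 0.36 ± 0.10, adjusted p = 0.028), a call that ended without parental replicates 1 or 3 or without replicates 1 or 3 of the DKO (adjusted p up to 0.14). It read 1886.1, 1908.8 and 1684.1 CPM in MITF/TFE3 DKO libraries (log2 fold change -0.53 ± 0.10, adjusted p = 2.5e-04) and 1918.0, 1865.2 and 1817.5 CPM in TKO libraries (log2 fold change -0.49 ± 0.10, adjusted p = 2.6e-04). Both lay below every parental library. Aldoa did not pass the test at 2721.0, 3176.7 and 2930.9 CPM in MITF KO libraries, 2852.1, 2370.5 and 2353.9 CPM in TFE3 KO libraries, 3530.2, 2947.7 and 3204.7 CPM in TFEB KO libraries and 2485.9, 2306.4 and 2170.5 CPM in MITF/TFEB DKO libraries. Aldoa lay above every parental library in the TFEB KO (adjusted p = 0.11) and below every parental library in the MITF/TFEB DKO (adjusted p = 0.14), and the rest of these lines overlapped the parental range. Gpi1 read 590.7, 622.7 and 525.7 CPM in the parental cells, 733.4, 902.8 and 763.3 CPM in MITF KO libraries (log2 fold change 0.46 ± 0.14, adjusted p = 0.011) and 405.9, 507.1 and 391.1 CPM in MITF/TFE3 DKO libraries (log2 fold change -0.42 ± 0.14, adjusted p = 0.018), above and below the parental range. The call in the MITF KO ended without parental replicate 3 or MITF KO replicate 2 (adjusted p up to 0.068), and that in the MITF/TFE3 DKO without parental replicates 1 or 2 or its own replicates 1 or 3 (adjusted p up to 0.081). Gpi1 did not pass the test at 672.9, 550.5 and 528.7 CPM in TFE3 KO libraries, 791, 539.8 and 691.4 CPM in TFEB KO libraries, 856.8, 633 and 858.9 CPM in TFEB/TFE3 DKO libraries, 570.9, 565 and 499.5 CPM in MITF/TFEB DKO libraries and 551.9, 513.6 and 519.2 CPM in TKO libraries. Gpi1 lay above every parental library in the TFEB/TFE3 DKO (adjusted p = 0.058), and the rest of these lines overlapped the parental range. Hk1, the constitutive hexokinase, was upregulated in the MITF KO (log2 fold change 0.61 ± 0.13, adjusted p = 4.7e-04), the TFEB/TFE3 DKO (log2 fold change 0.69 ± 0.13, adjusted p = 0.001), the MITF/TFE3 DKO (log2 fold change 0.47 ± 0.13, adjusted p = 0.0047) and the MITF/TFEB DKO (log2 fold change 0.67 ± 0.13, adjusted p = 9.1e-05), lines in 3 of which Hk2 was downregulated.

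Among the pay-off steps, Pkm, pyruvate kinase, read 1366.5, 1525.1 and 1346.5 CPM in the parental cells, 2041.3, 1704.5 and 1978.9 CPM in TFEB KO libraries (log2 fold change 0.43 ± 0.10, adjusted p = 0.015) and 1915.4, 1613.8 and 1990.6 CPM in TFEB/TFE3 DKO libraries (log2 fold change 0.38 ± 0.10, adjusted p = 0.025). Both lines lay above the parental range, but each call ended without parental replicates 1 or 3 or without replicates 1 or 3 of the KO line (adjusted p up to 0.074 and 0.13). Pkm was downregulated in the MITF/TFE3 DKO, at 988.1, 1207.0 and 970.2 CPM (log2 fold change -0.43 ± 0.10, adjusted p = 0.0023), and in the TKO, at 1162.0, 1134.1 and 1164.6 CPM (log2 fold change -0.29 ± 0.10, adjusted p = 0.022, ended without parental replicate 2 or TKO replicate 2). Pkm did not pass the test at 1347.0, 1539.2 and 1420.9 CPM in MITF KO libraries, 1674.9, 1526.6 and 1346.8 CPM in TFE3 KO libraries and 1333.2, 1275.0 and 1184.0 CPM in MITF/TFEB DKO libraries. Pkm lay below every parental library in the MITF/TFEB DKO (adjusted p = 0.2), and the rest of these lines overlapped the parental range. Ldha, the lactate dehydrogenase subunit that favours lactate, read 1234.8, 1321.1 and 1449.2 CPM in the parental cells and 1765.1, 1968.6 and 1778.9 CPM in TFEB KO libraries (log2 fold change 0.46 ± 0.08, adjusted p = 7.8e-04, ended with only the libraries compared in the fit, adjusted p = 0.078). It read 1003.1, 1077.2 and 1120.0 CPM in MITF KO libraries (log2 fold change -0.32 ± 0.08, adjusted p = 0.0031) and 747.8, 697.2 and 676.3 CPM in MITF/TFE3 DKO libraries (log2 fold change -0.91 ± 0.08, adjusted p = 7.0e-09), with no overlap. In the MITF/TFEB DKO it read 1408.4, 1484.1 and 1436.5 CPM, which did not pass the test (adjusted p = 0.24). Ldha did not pass the test at 1515.1, 1593.1 and 1357.1 CPM in TFE3 KO libraries, 1542.7, 1614.8 and 1461.9 CPM in TFEB/TFE3 DKO libraries and 1385.2, 1331.6 and 1343.5 CPM in TKO libraries. Ldha lay above every parental library in the TFEB/TFE3 DKO (adjusted p = 0.12), and the rest of these lines overlapped the parental range. Ldhb, the subunit that favours pyruvate, was upregulated in the MITF KO (log2 fold change 0.76 ± 0.08, adjusted p = 5.8e-08), the TFE3 KO, the TFEB/TFE3 DKO and the MITF/TFE3 DKO and downregulated in the TKO (log2 fold change -0.37 ± 0.08, adjusted p = 3.9e-04). Its call in the TFE3 KO ended without TFE3 KO replicate 2 and that in the TFEB/TFE3 DKO without replicate 1 of either group (adjusted p up to 0.053 and 0.057).

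Eno2, the neuronal enolase, was downregulated in 4 KO lines. It read 67.87, 68.26 and 61.17 CPM in the parental cells, 53.86, 38 and 37.01 CPM in TFE3 KO libraries (log2 fold change -0.62 ± 0.14, adjusted p = 0.0049, ended with only the libraries compared in the fit, adjusted p = 0.068), 23.17, 31.14 and 23.49 CPM in MITF/TFE3 DKO libraries (log2 fold change -1.32 ± 0.14, adjusted p = 1.3e-07), 45.95, 37.99 and 38.94 CPM in MITF/TFEB DKO libraries (log2 fold change -0.67 ± 0.14, adjusted p = 3.1e-04) and 34.86, 32.43 and 33.54 CPM in TKO libraries (log2 fold change -0.95 ± 0.14, adjusted p = 5.1e-06). All of these lay below every parental library. Eno2 did not pass the test at 52.77, 60.85 and 52.96 CPM in MITF KO libraries, 57.45, 54.02 and 66.86 CPM in TFEB KO libraries and 72.33, 52.45 and 69.65 CPM in TFEB/TFE3 DKO libraries. Eno2 lay below every parental library in the MITF KO (adjusted p = 0.19), and the rest of these lines overlapped the parental range. Pgam1, phosphoglycerate mutase, read 47.5, 48.02 and 38.07 CPM in the parental cells, 24.51, 23.34 and 21.46 CPM in MITF/TFEB DKO libraries (log2 fold change -0.91 ± 0.20, adjusted p = 5.7e-04) and 20.8, 19.26 and 16.77 CPM in TKO libraries (log2 fold change -1.19 ± 0.20, adjusted p = 3.0e-05). Both lay below every parental library, but its 3′ end is shared with copies elsewhere, and the 100 genes around it had a median log2 change of -0.80 and -0.83 in these lines, and their part in the result was not tested. Pgam1 did not pass the test at 54.09, 67.11 and 51.32 CPM in MITF KO libraries, 40.85, 32.37 and 32.11 CPM in TFE3 KO libraries, 67.36, 34.69 and 41.37 CPM in TFEB KO libraries, 60.31, 40.51 and 67.56 CPM in TFEB/TFE3 DKO libraries and 39.69, 45.6 and 29.35 CPM in MITF/TFE3 DKO libraries. Pgam1 lay above every parental library in the MITF KO (adjusted p = 0.17), and the rest of these lines overlapped the parental range.

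Gapdh, Pgk1 and Eno1, which encode 3 of the pay-off enzymes and have shared 3′ ends, differed several-fold between libraries of 1 line, and were singled out after their values were seen. Gapdh read 285.7, 268.6 and 489.9 CPM in the parental cells, 380.9, 1084.9 and 658.5 CPM in TFE3 KO libraries and 208.8, 976.3 and 381.2 CPM in TFEB KO libraries. Eno1 read 37.95, 181.3 and 74.53 CPM in TFE3 KO libraries and Pgk1 8.379, 66.87 and 29.68 CPM in the same 3 libraries. No test against the parental cells called them, at log2 changes of -1.31 ± 0.54 for Gapdh in the MITF KO, 1.40 ± 0.56 for Eno1 and 1.95 ± 0.70 for Pgk1 in the TFE3 KO, whose SE show the spread. The order of the libraries was shared with other members. In all 8 lines, the library with the highest Gapdh also had the highest Tpi1, the triosephosphate isomerase gene, and in 6 of 8 the highest Slc2a1 and the highest Ldha. In 6 of 8 lines that library had the lowest Pgam1, and in 4 the lowest Aldoa and the lowest Pkm. What sets this order was not tested.

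**Figure D4:**
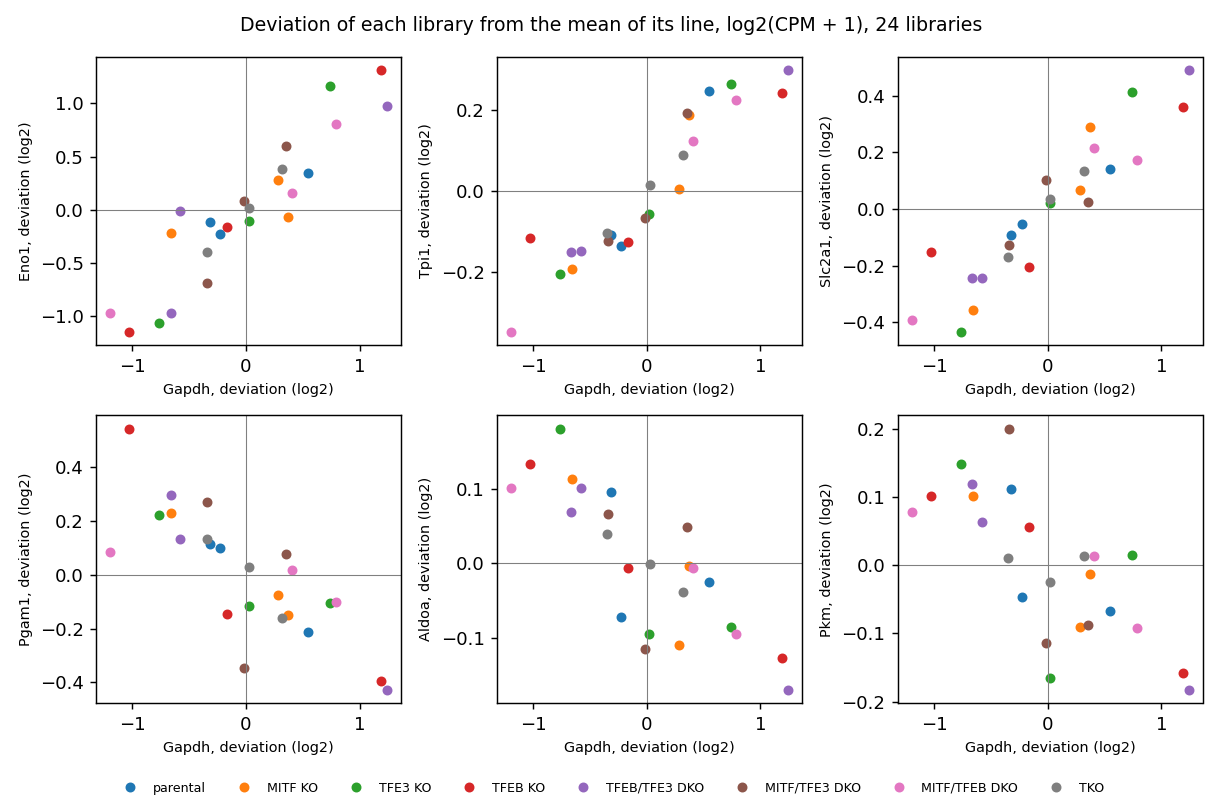
Deviation of each library from the mean of its line on the log2(CPM + 1) scale, for Gapdh (horizontal axes) against 6 other members (vertical axes), 24 points coloured by line. The library highest in Gapdh was the highest in Tpi1 in 8 of 8 lines and in Slc2a1 in 6, and the lowest in Pgam1 in 6.

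Of the switches of flux, Pdk2, a pyruvate dehydrogenase kinase, was upregulated in the 4 lines without MITF. It read 2.804, 1.41 and 1.798 CPM in the parental cells, 7.438, 9.759 and 8.118 CPM in MITF KO libraries (log2 fold change 1.67 ± 0.24, adjusted p = 7.3e-06), 2.907, 4.664 and 3.84 CPM in MITF/TFE3 DKO libraries (log2 fold change 0.69 ± 0.24, adjusted p = 0.024), 8.195, 8.438 and 4.101 CPM in MITF/TFEB DKO libraries (log2 fold change 1.37 ± 0.24, adjusted p = 4.0e-05) and 3.825, 3.994 and 4.343 CPM in TKO libraries (log2 fold change 0.78 ± 0.24, adjusted p = 0.0083). All lay above the parental range. The call in the MITF/TFE3 DKO ended without parental replicates 2 or 3 or its own replicates 2 or 3 (adjusted p up to 0.12), and that in the TKO without parental replicate 2 (adjusted p = 0.052). Pdk2 did not pass the test at 0.9476, 1.039 and 0.5134 CPM in TFE3 KO libraries, 1.917, 1.28 and 1.573 CPM in TFEB KO libraries and 3.193, 1.45 and 3.478 CPM in TFEB/TFE3 DKO libraries. Pdk2 lay below every parental library in the TFE3 KO (adjusted p = 0.059), and the rest of these lines overlapped the parental range. Pdk3, a related kinase, read 62.17, 67.17 and 56.05 CPM in the parental cells, 91.42, 71.93 and 83.06 CPM in TFEB KO libraries (log2 fold change 0.40 ± 0.12, adjusted p = 0.045, ended without any 1 of 5 of the 6 libraries, all but TFEB KO replicate 2) and 102, 96.26 and 85.24 CPM in MITF/TFEB DKO libraries (log2 fold change 0.60 ± 0.12, adjusted p = 1.1e-04). Pdk3 did not pass the test at 67.65, 82.98 and 74.97 CPM in MITF KO libraries, 69.52, 60.98 and 51.57 CPM in TFE3 KO libraries, 87.02, 71.69 and 77.23 CPM in TFEB/TFE3 DKO libraries, 74.12, 80.98 and 69.94 CPM in MITF/TFE3 DKO libraries and 76.98, 68.57 and 66.87 CPM in TKO libraries. Pdk3 lay above every parental library in the MITF KO (adjusted p = 0.062), the TFEB/TFE3 DKO (adjusted p = 0.068) and the MITF/TFE3 DKO (adjusted p = 0.058), and the rest of these lines overlapped the parental range. Pfkfb3 makes fructose 2,6-bisphosphate, the strongest activator of phosphofructokinase, and was downregulated in the MITF/TFEB DKO, at 14.43, 16.04 and 14.41 CPM against 24.12, 27.83 and 20.14 CPM (log2 fold change -0.64 ± 0.14, adjusted p = 4.7e-04), with no overlap. Pfkfb3 did not pass the test at 21.51, 19.72 and 15.36 CPM in MITF KO libraries, 35.36, 30.38 and 31.22 CPM in TFE3 KO libraries, 27.53, 19.29 and 27.86 CPM in TFEB KO libraries, 26.03, 24.17 and 24.11 CPM in TFEB/TFE3 DKO libraries, 25.91, 31.71 and 27.65 CPM in MITF/TFE3 DKO libraries and 18.07, 19.69 and 18.83 CPM in TKO libraries. Pfkfb3 lay above every parental library in the TFE3 KO (adjusted p = 0.051) and below every parental library in the TKO (adjusted p = 0.053), and the rest of these lines overlapped the parental range. Pdk1, the classical HIF target of this family, was upregulated in the TFEB/TFE3 DKO (log2 fold change 0.68 ± 0.17, adjusted p = 0.013) and downregulated in the MITF/TFE3 DKO (log2 fold change -0.49 ± 0.17, adjusted p = 0.023). Pfkfb4 was downregulated in the MITF KO and the TFE3 KO, with log2 fold changes of -0.60 and -0.57. The call of Pdk1 in the TFEB/TFE3 DKO ended without its replicate 1 and that in the MITF/TFE3 DKO without parental replicate 3 or its own replicate 2 (adjusted p up to 0.071 and 0.11). That of Pfkfb4 ended without parental replicate 2 in the MITF KO and without parental replicate 2 or TFE3 KO replicates 2 or 3 in the TFE3 KO (up to 0.065 and 0.19).

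**Figure D5:**
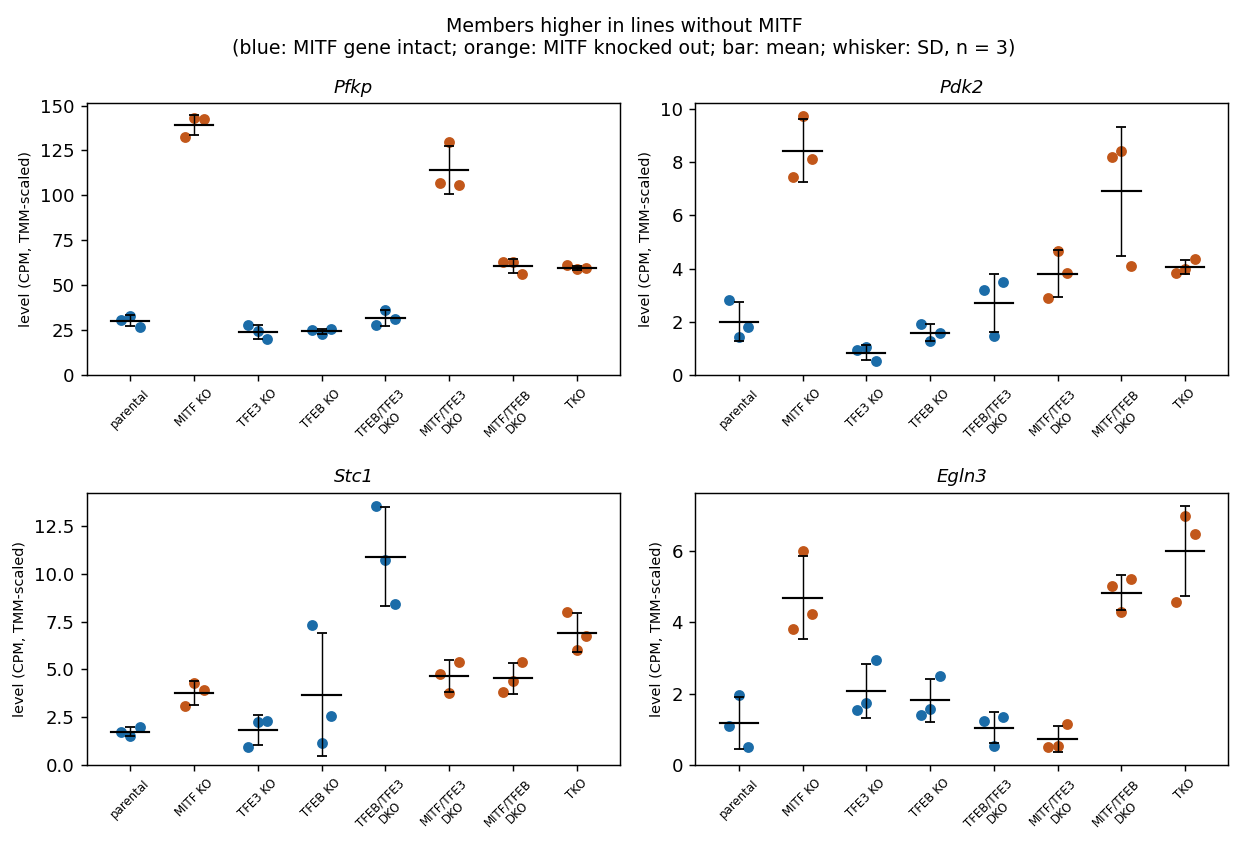
Level in CPM (vertical axis, from 0) of Pfkp, Pdk2, Stc1 and Egln3 in each of the 3 libraries (points) of the 8 lines, with the mean (bar) and SD (whisker). Pfkp, Pdk2 and Stc1 lie above the parental cells in all 4 lines without MITF (orange), Stc1 also in the TFEB/TFE3 DKO, and Egln3 in all lines without MITF except the MITF/TFE3 DKO.

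Within the HIF pathway itself, Egln3, a prolyl hydroxylase that HIF induces, separated the MITF/TFE3 DKO from the other lines without MITF. It read 1.079, 1.955 and 0.4944 CPM in the parental cells, 3.813, 6.024 and 4.25 CPM in MITF KO libraries (log2 fold change 1.42 ± 0.24, adjusted p = 6.6e-05), 5.019, 4.282 and 5.215 CPM in MITF/TFEB DKO libraries (log2 fold change 1.48 ± 0.24, adjusted p = 2.0e-05) and 4.59, 6.99 and 6.493 CPM in TKO libraries (log2 fold change 1.73 ± 0.24, adjusted p = 2.2e-06). These 3 lines lay above every parental library. In the MITF/TFE3 DKO it read 0.4983, 0.5182 and 1.143 CPM and did not pass the test (adjusted p = 0.33). Egln3 did not pass the test at 1.546, 1.731 and 2.94 CPM in TFE3 KO libraries, 1.384, 1.554 and 2.499 CPM in TFEB KO libraries and 1.237, 0.5318 and 1.334 CPM in TFEB/TFE3 DKO libraries, all overlapping the parental range. Egln1, the main oxygen sensor of the family, was upregulated in the TFE3 KO (log2 fold change 0.48 ± 0.15, adjusted p = 0.038) and the TFEB/TFE3 DKO (log2 fold change 0.66 ± 0.15, adjusted p = 0.0069) and downregulated in the MITF/TFEB DKO (log2 fold change -0.46 ± 0.15, adjusted p = 0.013). The call in the TFE3 KO ended without any parental library or TFE3 KO replicate 2, and that in the MITF/TFEB DKO without its replicate 1 (adjusted p up to 0.19 and 0.11). Vhl, the ligase subunit that recognises hydroxylated HIF, read 39.43, 40.56 and 38.3 CPM in the parental cells and stayed between 33.11 and 48.76 CPM in all 24 libraries, with no call. Vhl read 40.16, 42.93 and 34.38 CPM in MITF KO libraries, 38.15, 42.89 and 33.14 CPM in TFE3 KO libraries, 41.69, 33.54 and 35.17 CPM in TFEB KO libraries, 45.07, 38.43 and 42.45 CPM in TFEB/TFE3 DKO libraries, 41.02, 48.76 and 35.42 CPM in MITF/TFE3 DKO libraries, 40.46, 37.61 and 35.43 CPM in MITF/TFEB DKO libraries and 37.23, 36.14 and 33.11 CPM in TKO libraries. Vhl lay below every parental library in the TKO (adjusted p = 0.29), and the rest of these lines overlapped the parental range. Epas1, which encodes HIF-2α, read 3.062 CPM or less in every library and was called in no KO line against the parental cells.

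Among the HIF-responsive effectors, Bnip3 and Bnip3l encode mitophagy receptors on the outer mitochondrial membrane. Bnip3 read 44.61, 54.98 and 52.27 CPM in the parental cells, 170.9, 66.81 and 86.39 CPM in TFEB KO libraries (log2 fold change 0.97 ± 0.24, adjusted p = 0.018) and 211.5, 146.6 and 144.1 CPM in TFEB/TFE3 DKO libraries (log2 fold change 1.69 ± 0.24, adjusted p = 6.3e-05). Both lines lay above the parental range, but the call in the TFEB KO ended without parental replicate 1 or TFEB KO replicate 1 (adjusted p up to 0.12). Bnip3 read 59.79, 115.2 and 84.72 CPM in MITF KO libraries (log2 fold change 0.72 ± 0.24, adjusted p = 0.022, ended without parental replicate 1 or MITF KO replicates 2 or 3) and 40.69, 27.47 and 30.21 CPM in MITF/TFE3 DKO libraries (log2 fold change -0.63 ± 0.24, adjusted p = 0.042, ended without parental replicates 2 or 3 or replicates 2 or 3 of the DKO, and with edgeR). Bnip3 did not pass the test at 42.69, 51.46 and 45.5 CPM in TFE3 KO libraries, 65.99, 70.15 and 70.75 CPM in MITF/TFEB DKO libraries and 54.32, 48.55 and 49.32 CPM in TKO libraries. Bnip3 lay above every parental library in the MITF/TFEB DKO (adjusted p = 0.13), and the rest of these lines overlapped the parental range. Bnip3l read 33.74, 39.02 and 38.21 CPM in the parental cells. It was upregulated in the MITF KO, at 43.92, 53.9 and 47.89 CPM (log2 fold change 0.38 ± 0.12, adjusted p = 0.012), the TFEB/TFE3 DKO, at 54.85, 42.78 and 48.88 CPM (log2 fold change 0.39 ± 0.12, adjusted p = 0.038), and the MITF/TFEB DKO, at 50.23, 48.91 and 41.17 CPM (log2 fold change 0.33 ± 0.12, adjusted p = 0.02), and downregulated in the TFE3 KO, at 29.67, 28.22 and 25.95 CPM (log2 fold change -0.39 ± 0.12, adjusted p = 0.029). The groups did not overlap, but each call ended when 1 library was left out. These were parental replicate 1 or MITF KO replicate 2 for the MITF KO (adjusted p up to 0.073), any but replicate 2 of the DKO for the TFEB/TFE3 DKO (up to 0.21), parental replicate 1 or replicates 1 or 2 of the DKO for the MITF/TFEB DKO (up to 0.093), and replicates 2 or 3 of either group for the TFE3 KO (up to 0.12). Bnip3l did not pass the test at 42.54, 32.4 and 43.73 CPM in TFEB KO libraries, 36.29, 33.35 and 33.09 CPM in MITF/TFE3 DKO libraries and 35.48, 37.99 and 35.73 CPM in TKO libraries, all overlapping the parental range.

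Stc1, a secreted glycoprotein that responds to calcium and hypoxia, read 1.683, 1.501 and 1.978 CPM in the parental cells. It read 13.57, 10.73 and 8.433 CPM in TFEB/TFE3 DKO libraries (log2 fold change 2.11 ± 0.31, adjusted p = 8.5e-05). This was 4.32-fold higher on the CPM + 1 scale of the fit and 6.34-fold higher in mean CPM. It read 4.775, 3.769 and 5.394 CPM in MITF/TFE3 DKO libraries (log2 fold change 1.05 ± 0.31, adjusted p = 0.0094), 3.803, 4.366 and 5.375 CPM in MITF/TFEB DKO libraries (log2 fold change 1.01 ± 0.31, adjusted p = 0.0081) and 8.015, 5.991 and 6.751 CPM in TKO libraries (log2 fold change 1.54 ± 0.31, adjusted p = 2.1e-04). In the MITF KO it read 3.06, 4.257 and 3.923 CPM (log2 fold change 0.80 ± 0.31, adjusted p = 0.046), and this call ended without any 1 of the 6 libraries (adjusted p up to 0.13). None of these lines overlapped the parental cells. In the TFEB KO 1 library stood apart, at 7.295, 1.142 and 2.545 CPM, and Stc1 did not pass the test (adjusted p = 0.4). Stc1 did not pass the test at 0.8977, 2.25 and 2.287 CPM in TFE3 KO libraries, which overlapped the parental range.

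Ndrg1, a stress-induced gene known to restrain metastasis in several tumours, read 12.34, 12.64 and 11.73 CPM in the parental cells and 23.96, 26.19 and 26.37 CPM in MITF KO libraries, a 2-fold rise (log2 fold change 1.0 ± 0.11, adjusted p = 1.2e-07). It read 21.84, 19.98 and 20.29 CPM in MITF/TFE3 DKO libraries (log2 fold change 0.71 ± 0.11, adjusted p = 1.6e-05) and 21.53, 24.14 and 23.01 CPM in MITF/TFEB DKO libraries (log2 fold change 0.85 ± 0.11, adjusted p = 5.6e-07), all above the parental range. In the TKO it read 10.64, 12.17 and 10.92 CPM, overlapping the parental range, and did not pass the test (adjusted p = 0.38). It was upregulated in the TFEB KO, at 15.6, 19.15 and 16.56 CPM (log2 fold change 0.45 ± 0.11, adjusted p = 0.014, ended without parental replicate 3 or TFEB KO replicate 2), and in the TFEB/TFE3 DKO, at 17.6, 16.24 and 14.44 CPM (log2 fold change 0.37 ± 0.11, adjusted p = 0.035, ended without any 1 of 5 of the 6 libraries, all but replicate 3 of the DKO). Ndrg1 did not pass the test at 11.57, 12.77 and 14.56 CPM in TFE3 KO libraries, which overlapped the parental range. Higd1a, a mitochondrial protein induced by hypoxia, read 190.7, 202.1 and 188.2 CPM in the parental cells and 304.4, 234.1 and 248.7 CPM in TFEB/TFE3 DKO libraries (log2 fold change 0.43 ± 0.12, adjusted p = 0.027, ended without any 1 of 5 of the 6 libraries, all but replicate 2 of the DKO). It was downregulated in the MITF/TFE3 DKO, at 128.6, 116.4 and 107.3 CPM (log2 fold change -0.72 ± 0.12, adjusted p = 5.1e-05), the MITF/TFEB DKO, at 116.9, 137.9 and 138.3 CPM (log2 fold change -0.56 ± 0.12, adjusted p = 3.8e-04), and the TKO, at 140.8, 139 and 145.7 CPM (log2 fold change -0.45 ± 0.12, adjusted p = 0.0032), below every parental library. Higd1a did not pass the test at 177.3, 196.6 and 180.4 CPM in MITF KO libraries, 193.3, 234.3 and 198.3 CPM in TFE3 KO libraries and 295.6, 221.2 and 195.9 CPM in TFEB KO libraries, all overlapping the parental range.

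The 2 membrane carbonic anhydrases, which set pH outside the cell, had few reads and moved in opposite directions. Car9 read 2.589, 1.91 and 2.472 CPM in the parental cells, 8.263, 2.874 and 5.531 CPM in MITF/TFE3 DKO libraries (log2 fold change 0.90 ± 0.32, adjusted p = 0.029), 0.2745, 1.133 and 1.155 CPM in MITF/TFEB DKO libraries (log2 fold change -0.88 ± 0.32, adjusted p = 0.025) and 0.3643, 0.5231 and 0.645 CPM in TKO libraries (log2 fold change -1.14 ± 0.32, adjusted p = 0.0047). The first lay above and the others below the parental range. The call in the MITF/TFE3 DKO ended without parental replicates 2 or 3 or its own replicates 1 or 3, and that in the MITF/TFEB DKO without parental replicates 1 or 3 or its own replicate 1 (adjusted p up to 0.18 and 0.14), while that in the TKO held without any 1 library (up to 0.02). Car9 did not pass the test at 2.495, 2.249 and 3.923 CPM in MITF KO libraries, 2.045, 4.155 and 4.247 CPM in TFE3 KO libraries, 3.195, 3.61 and 1.527 CPM in TFEB KO libraries and 6.267, 6.526 and 2.382 CPM in TFEB/TFE3 DKO libraries, all overlapping the parental range. Car12 read 0.4746, 0.8185 and 0.4045 CPM in the parental cells, 0.08304, 0.2356 and 0.09142 CPM in MITF/TFE3 DKO libraries (log2 fold change -0.46 ± 0.16, adjusted p = 0.025, on 2 to 5 reads a library), 1.647, 2.099 and 1.951 CPM in MITF/TFEB DKO libraries (log2 fold change 0.89 ± 0.16, adjusted p = 5.1e-05) and 3.097, 1.997 and 2.408 CPM in TKO libraries (log2 fold change 1.16 ± 0.16, adjusted p = 1.6e-06). None of these overlapped the parental cells, and the call in the MITF/TFE3 DKO ended without parental replicate 2 or its own replicates 1 or 3 (adjusted p up to 0.13). Car12 did not pass the test at 0.4708, 0.5623 and 0.2724 CPM in MITF KO libraries, 0.3491, 0.7357 and 0.6067 CPM in TFE3 KO libraries, 0.426, 0.4113 and 0.1388 CPM in TFEB KO libraries and 0.3593, 0.2901 and 0.6194 CPM in TFEB/TFE3 DKO libraries, all overlapping the parental range.

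Vegfa, the angiogenic growth factor, was upregulated in the MITF KO (log2 fold change 0.94 ± 0.16, adjusted p = 6.7e-05) and the TFEB/TFE3 DKO (log2 fold change 0.55 ± 0.16, adjusted p = 0.034) and downregulated in the MITF/TFEB DKO (log2 fold change -0.68 ± 0.16, adjusted p = 9.8e-04) and the TKO (log2 fold change -0.62 ± 0.16, adjusted p = 0.0024), over a range of 12.86 to 52.77 CPM in all libraries. P4ha1, a collagen prolyl hydroxylase, was upregulated in the MITF/TFEB DKO (log2 fold change 0.80 ± 0.12, adjusted p = 5.5e-06) and the TKO (log2 fold change 0.36 ± 0.12, adjusted p = 0.014), and P4ha2, its relative, was downregulated in the MITF KO (log2 fold change -0.52 ± 0.12, adjusted p = 0.0016) and the MITF/TFEB DKO (log2 fold change -0.33 ± 0.12, adjusted p = 0.023). Ankrd37, a small ankyrin-repeat gene with at most 3.105 CPM, was upregulated in all lines without MITF except the MITF KO, by log2 changes of 0.66 to 0.90. Calls that ended without 1 library were those of Vegfa in the TFEB/TFE3 DKO (any but parental replicate 1), P4ha1 in the TKO (parental replicate 1 or TKO replicates 2 or 3), P4ha2 in the MITF/TFEB DKO (parental replicates 1 or 3 or its own replicates 1 or 2) and Ankrd37 in the MITF/TFE3 DKO (any but its replicate 3) and the TKO (any but TKO replicate 2), with adjusted p-values up to 0.13, 0.071, 0.14, 0.13 and 0.14.

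Where MITF was already lost, lines that lacked a further factor were lower in more members than they were higher. In the MITF/TFE3 DKO against the MITF KO, which removes TFE3, 21 of 43 members were downregulated (48.8%, against 19.7% of all genes) and 4 upregulated (9.3%, against 18.1%), with a median log2 fold change of -0.29 against -0.0073 over all genes. Of the 4 upregulated members, Gapdh and Eno1 have shared 3′ ends, as does Pgam1 among the 21 downregulated ones. Without members with such ends, 2 of 39 were upregulated (5.13%, Slc2a3 and Pfkfb3) and 20 downregulated (51.3%). The 21 downregulated members included 5 of 8 enzymes of the preparatory steps, 5 of 8 of the pay-off steps (Pgam1 among them) and 6 of 12 effectors, with log2 fold changes of -1.11 ± 0.14 for Slc16a3, -0.59 ± 0.08 for Ldha, -1.34 ± 0.24 for Bnip3 and -1.73 ± 0.24 for Egln3 (adjusted p = 2.8e-06, 6.9e-06, 1.8e-04 and 9.7e-06). The study's threshold was passed by 6 members (14%, against 5.06% of all genes). Of the 21 calls, 18 held without any 1 of the 6 libraries (all but Pfkp, Pgam1 and Ndrg1), and the count of upregulated members was 2 without MITF KO replicate 2 or without MITF/TFE3 DKO replicates 1 or 3.

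When the MITF/TFEB DKO was set against the MITF KO, which removes TFEB, 13 members were downregulated (30.2%, against 23.9% of all genes) and 7 upregulated (16.3%, against 25.1%), and 7 passed the study's threshold (against 10.9%). The median log2 fold change was -0.15, against 0.018 over all genes. Of the calls, 10 of the 13 lower and 5 of the 7 higher held without any 1 library. Both comparisons with the MITF KO share its libraries. Hk2 (-1.03 ± 0.12, adjusted p = 1.3e-07), Pfkp (-1.19 ± 0.11, adjusted p = 9.6e-09), Slc16a3 (-0.92 ± 0.14, adjusted p = 1.2e-05) and Vegfa (-1.63 ± 0.16, adjusted p = 1.7e-08) were among the downregulated members, and Ldha (0.44 ± 0.08, adjusted p = 1.1e-04) and P4ha1 (0.95 ± 0.12, adjusted p = 7.6e-07) among the upregulated ones. The 2 double KOs set against each other leave TFE3 or TFEB as the factor in the cell. The MITF/TFEB DKO was higher in 15 members (34.9%, against 25.5% of all genes) and lower in 9 (20.9%, against 22.4%), and 5 passed the study's threshold (against 9.75%). Ldha (log2 fold change 1.03 ± 0.08, adjusted p = 4.7e-10), Bnip3 (log2 fold change 1.07 ± 0.24, adjusted p = 8.6e-04) and Egln3 (log2 fold change 1.78 ± 0.24, adjusted p = 2.3e-06) were higher in the cells with TFE3, and Pfkp (log2 fold change -0.90 ± 0.11, adjusted p = 7.9e-07) and Car9 (log2 fold change -1.77 ± 0.32, adjusted p = 9.0e-05) were higher in the cells with TFEB.

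The TKO differs from the MITF/TFEB DKO by the loss of TFE3 as the last factor. When the TKO was set against the MITF/TFEB DKO, 7 members were downregulated (16.3%, against 6.99% of all genes), namely Hk1, Aldoa, Ldhb, Pdk3, Ndrg1, P4ha1 and Mgarp, and 1 (Epas1) was upregulated (2.33%, against 5.41%). The fitted changes of all 43 members were under 2-fold in limma, where 2.3% of all genes passed the study's threshold. Ndrg1 changed most of these (log2 fold change -0.97 ± 0.11, adjusted p = 5.3e-07), from 21.53, 24.14 and 23.01 CPM to 10.64, 12.17 and 10.92 CPM, and with Ldhb it was 1 of the 2 downregulated members that held without any 1 of the 6 libraries. The count of downregulated members was 3 without MITF/TFEB DKO replicate 1 or any 1 TKO library and 4 without MITF/TFEB DKO replicate 2, and that of upregulated members was 0 without MITF/TFEB DKO replicate 2 or TKO replicates 1 or 2 and 2 without MITF/TFEB DKO replicate 3.

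Whether a factor's effect differed with and without MITF was tested by an interaction in the same fit. For TFEB, the effect in MITF KO cells minus that in parental cells was called for 21 of 43 members (48.8%, against 35.1% of all genes), negative for 18 and positive for 3. The median difference of the members was -0.34 for TFEB and -0.29 for TFE3, against 0.018 and -0.011 over all genes. The shares of all genes called in each direction were not determined for either factor, so that the splits are not read as particular to the members. For Slc16a3, the line that lost TFEB was higher where MITF was present (0.97 ± 0.14) and lower where MITF was absent (-0.92 ± 0.14), a difference of -1.90 ± 0.20 (adjusted p = 1.0e-07). The signs were the same for Hk2 (0.45 ± 0.12 with and -1.03 ± 0.12 without MITF, difference -1.48 ± 0.16, adjusted p = 2.0e-07). The call of the first Hk2 effect ended without any 1 of 5 of the 6 libraries, or with only the libraries compared in the fit (adjusted p up to 0.22). For Hif1a the effects were 0.30 ± 0.06 and -0.19 ± 0.06 (difference -0.49 ± 0.09, adjusted p = 1.5e-04), and the second ended without MITF KO replicate 3 or MITF/TFEB DKO replicate 2, with an adjusted p up to 0.065, or with only the libraries compared. For Mgarp they were 1.28 ± 0.18 and -0.17 ± 0.18 (difference -1.45 ± 0.26, adjusted p = 1.4e-04), where the second did not pass the test and both lines compared were near the floor. For TFE3, the difference was called for 12 members (27.9%, against 20.2% of all genes), negative for 11 and positive for 1 (Pfkfb4). Egln3 had the largest of these, at -2.25 ± 0.34 (adjusted p = 3.6e-05), from 0.53 ± 0.24 with MITF, which did not pass the test, to -1.73 ± 0.24 without it. The terms of each difference share no libraries, but the lines are single clones and the factor cannot be told apart from the clone.

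Other genes of both pathways were listed with earlier results of these data known, so that their counts are not an independent check of the members. Of 33 measured genes of carbohydrate metabolism beside the members and 41 of the HIF machinery and of hypoxia-inducible genes, the shares called are given beside those of all genes. For the carbohydrate genes, 3 (9.09%, against 2.25%) were upregulated and 0 (0%, against 2.59%) downregulated for the TFEB KO and 9 and 0 (27.3% and 0%, against 4.72% and 4.09%) for the TFEB/TFE3 DKO. The counts up and down were 2 and 1 (6.06% and 3.03%, against 4.5% and 7.78% of all genes) for the TFE3 KO, 8 and 6 (24.2% and 18.2%, against 20.1% and 17.8% of all genes) for the MITF KO, 6 and 5 (18.2% and 15.2%, against 20.2% and 21.7% of all genes) for the MITF/TFE3 DKO, 8 and 11 (24.2% and 33.3%, against 28.8% and 27.3% of all genes) for the MITF/TFEB DKO and 7 and 13 (21.2% and 39.4%, against 28.3% and 27.9% of all genes) for the TKO. Beside the counts of 0 downregulated, an unadjusted p under 0.05 in limma found 1 in each line and edgeR 0. For the HIF and hypoxia genes, 3 (7.32%, against 2.25%) were upregulated and 1 (2.44%, against 2.59%) downregulated for the TFEB KO and 9 and 0 (22% and 0%, against 4.72% and 4.09%) for the TFEB/TFE3 DKO. The counts up and down were 1 and 3 (2.44% and 7.32%) for the TFE3 KO, 12 and 10 (29.3% and 24.4%) for the MITF KO, 6 and 13 (14.6% and 31.7%) for the MITF/TFE3 DKO, 11 and 10 (26.8% and 24.4%) for the MITF/TFEB DKO and 10 and 10 (24.4% and 24.4%) for the TKO. For the TFEB/TFE3 DKO, 3 were lower at an unadjusted p under 0.05 in limma and 0 in edgeR. The shares for all genes in these lines are those given for the carbohydrate genes. The genes that passed 2-fold in most lines were led by Ddit4, an mTORC1 inhibitor induced by stress, with a mean of 55.77 CPM in the parental cells, 244.2 CPM in the MITF KO (log2 fold change 2.12, adjusted p = 2.9e-10) and 118.9 CPM in the TKO (1.09, adjusted p = 4.4e-06). Slc2a4, the insulin-responsive glucose transporter GLUT4, moved in the same directions as Slc16a3 in the double KOs, from a mean of 7.338 CPM in the parental cells to 14.72 CPM in the TFEB/TFE3 DKO (log2 fold change 0.91, adjusted p = 0.0015) and 0.3121 CPM in the TKO (-2.67, adjusted p = 7.3e-12). Pygl, a glycogen phosphorylase, had means of 1.571 CPM in the parental cells and 3.316 CPM in the TFEB/TFE3 DKO (log2 fold change 0.74, adjusted p = 6.1e-04). It was downregulated in all 4 lines without MITF, to means of 0.294 CPM or less (adjusted p = 8.6e-07 in the MITF/TFEB DKO and 3.7e-08 or less in the others), levels of so few reads that no fold is given. Nampt, which makes NAD from nicotinamide, and Bhlhe41, a circadian repressor induced by hypoxia, were downregulated in the TKO (log2 fold change -1.72 and -2.44, adjusted p = 4.9e-13 and 1.7e-15).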

How the data were processed

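RNA of 24 libraries (8 cell lines, 3 libraries each) was sequenced from the 3′ end with a QuantSeq Forward kit. Per the submitters' processing notes, FastQC 0.11.9, Trim Galore 0.6.5, cutadapt 2.10, STAR 2.7.8a, edgeR and the build mm39 were used. The counting tool, its strand setting and the annotation are not given in the sources used here. The deposited values are a signal in which the authors divided read counts by library size and scaled them by TMM (CPM). Dividing by the step of each column gave whole reads, within 0.1, for at least 99.99% of values, and libraries held 18300902 to 26667877 reads. The analysis plan assumed normalised values of this kind, and columns of other samples numbered 0.

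The test was limma 3.58.1 (R 4.3.3) on log2(CPM + 1), with 1 coefficient per line, a variance trend, all 24 libraries in 1 fit (16 residual degrees of freedom) and Benjamini-Hochberg adjustment over 12010 genes. Fold changes are on the log2(CPM + 1) scale, which understates changes of low genes, and ± gives the SE. A gene was called at an adjusted p under 0.05, and the study's threshold was a fold of at least 2 at an unadjusted p under 0.05. An exact test of 3 against 3 libraries cannot go below p = 0.1, so single values were not tested alone. Alternatives were edgeR 4.0.16 (quasi-likelihood) on the recovered reads, pseudocounts of 0.25 and 5, quantile normalization, a fit without the trend, a mean CPM of at least 5, the replicate number as a block, size factors from medians of ratios, a fit of only the compared libraries and each library left out. Counts without the 4 members with shared 3′ ends, and the order of libraries within lines, were added after seeing the data. The scripts were tested on simulated data. Promoters and copies of 3′ ends were read from GRCm39, with Python 3.11.15, numpy 2.4.6, pandas 2.3.3 and matplotlib 3.10.9.

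The members and lists were chosen with earlier results of these data known. Every library is given for 25 members, namely the 13 with a fold of at least 2 and an adjusted p under 0.05 in some KO line, and 12 more with the highest mean CPM of their role. The other members are given by counts, ranges and tests.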

Additional observations from a re-analysis of the deposited data

Results flagged for a closer look

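For 14 of the 25 members described by library (13 of the 25 were chosen for a 2-fold change in these lines), the effect of losing TFEB differed between cells without and with MITF, by the interaction in the limma fit at an adjusted p under 0.05, which 35.1% of all genes passed. The difference, on the log2 scale, was -1.8950 for Slc16a3, -1.4805 for Hk2, -1.4490 for Mgarp, -1.3231 for Pgam1, -1.2430 for Bnip3, -1.2283 for Car9 and -0.8984 for Pfkp. It was -0.7676 for Higd1a, -0.7522 for Gpi1, -0.6341 for Aldoa, -0.6145 for Pkm, -0.5975 for Ndrg1 and -0.4917 for Hif1a. Car12 differed in the other direction, by 1.2554. For Pgam1, whose 3′ end is shared with copies elsewhere, the level is uncertain.

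For 9 of the 25, the effect of losing TFE3 differed in the same way, against 20.2% of all genes. The difference was -2.2547 for Egln3, -1.2264 for Bnip3, -0.8882 for Gpi1, -0.7543 for Higd1a, -0.7491 for Ldha, -0.7458 for Hk2, -0.6241 for Aldoa, -0.5582 for Slc16a1 and -0.5474 for Pkm. The lines are clones, and the clone and the genotype cannot be told apart.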

How the results depend on the processing

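Of 478 counts and medians of the members under an alternative, 425 stayed within 1.5 times the reported count or within 1 SD. Of 2980 fold changes of named members, 2804 stayed called or uncalled as before, 50 gained a call, 125 lost it and 1 that was called in a fit reversed. A change of sign between 2 fits that both made no call was not counted as a reversal. Quantile normalization reversed Aldoa for MITF/TFEB DKO, from -0.18 to 0.2902, and moved the median of the members to 0.1129 for MITF KO, 0.0443 for MITF/TFEB DKO and -0.0582 for TKO. With only the libraries compared, members higher numbered 0 for TFE3 KO, 2 for TFEB KO, 11 for TFEB/TFE3 DKO and 13 for TKO, and members lower 11 for MITF KO and 1 for TFE3 KO. With a mean CPM of at least 5, members higher numbered 5 for MITF/TFE3 DKO, 7 for MITF/TFEB DKO, 3 for TKO and 0 for TKO against MITF/TFEB DKO. Members with a lower mean, among them Pdk2, Stc1 and Epas1, were left out of that fit, so that these counts are of fewer than 43 members. Members past the study's threshold numbered 3 for MITF KO, 3 for MITF/TFEB DKO and 4 for TKO with a pseudocount of 5, 3 and 4 in the last 2 with a mean CPM of at least 5, 10 for MITF/TFEB DKO with a pseudocount of 0.25 or edgeR, and 4 for TFEB KO with edgeR. Without the 4 members with shared 3′ ends, 2 were higher for MITF/TFE3 DKO against MITF KO and 0 passed the threshold for TFE3 KO. The shares of all genes under the alternatives were not determined. Unless shown by how the alternative was built, the cause was not tested.

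With 1 library left out, members higher ranged from 0 to 5 for TFE3 KO, 5 to 11 for TFEB KO, 8 to 17 for TFEB/TFE3 DKO, 2 to 5 for MITF/TFE3 DKO against MITF KO and 0 to 2 for TKO against MITF/TFEB DKO. Members lower ranged from 2 to 5 for TFE3 KO and 3 to 7 for TKO against MITF/TFEB DKO, and members past the threshold from 0 to 3 for TFE3 KO and 1 to 3 for TFEB KO.

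Replicate numbers did not pair the libraries. The deviations of libraries with the same number correlated by 0.022 on average across lines, against -0.013 for other numbers. With the replicate block, members higher numbered 10 for TFEB KO and 18 for TFEB/TFE3 DKO, and no count moved by over 1.5 times. The block ended the calls of Stc1 for MITF KO, Pfkm for TFEB/TFE3 DKO and Mgarp for TKO against MITF/TFEB DKO. Genes with few reads, such as Car12 and Ankrd37, are limited by depth.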
